A study of Mus musculus with 16 samples.

Results

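Adenosine receptors and the cyclic AMP pathway behind them were followed in mouse macrophages that were fed apoptotic cells. The set held 9 genes of the 55416 gene IDs in the count table: the receptors Adora2a and Adora2b, the ectonucleotidase Entpd1, the cyclic AMP effector Rapgef3, the phosphodiesterases Pde4a, Pde4b and Pde4d, and the cyclic AMP responsive genes Crem and Nr4a1. The genes were chosen by name for their place in this pathway and with earlier results of these same libraries known, so they were in effect selected on the values given here. Their levels, fold changes and calls are therefore a description, and no p-value is attached to them. All 9 were among the 14168 genes that passed the filter on low counts and were tested.

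The cells were macrophages of the Hoxb8 line, made from mouse bone marrow progenitors immortalised with the transcription factor Hoxb8. There were 4 groups of 4 libraries: macrophages alone, and macrophages incubated for 45, 90 or 180 min with apoptotic cells of the human leukaemic T cell line Jurkat. All groups share the line and its bone marrow origin. The labels name no genotype or drug, do not say whether libraries of the same group are separate cultures, and do not give the time at which the macrophages alone were harvested, so exposure and time in culture cannot be told apart. If the libraries were technical repeats, the errors given here measure technical spread alone.

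Adenosine is released by stressed and dying cells, or is made outside the cell from ATP by ectonucleotidases such as the one encoded by Entpd1. The receptors encoded by Adora2a and Adora2b couple to the stimulatory G protein and raise cyclic AMP, which acts through protein kinase A and through EPAC proteins and is broken down by phosphodiesterases. In macrophages this pathway is known for damping the inflammatory response, and protein kinase A turns on genes through the factor CREB, which binds the cyclic AMP response element.

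Total RNA was depleted of ribosomal RNA and sequenced from a directional library. Library totals ran between 10.7 M and 41.7 M (1e6) counts, with means of 24.7 M, 31.7 M, 15.7 M and 17.9 M in macrophages alone and at 45, 90 and 180 min. Levels are CPM, the counts of a gene scaled to a common library size, and the libraries of a group carry numbers 1 to 4 that only name them. All 11 macrophage markers looked at, among them Adgre1, Csf1r and Lyz2, were detected, with summed levels of 9930 to 12700 CPM over the 16 libraries. The 13 T cell markers, looked at because Jurkat is a T cell line, summed to 11.7 to 14.4 CPM in macrophages alone, 9.31 to 10.3 CPM at 45 min, 9.05 to 10.8 CPM at 90 min and 9.9 to 13.9 CPM at 180 min. Most of that sum was Cd28, and Cd3e, Cd3g, Trbc2, Cd2, Bcl11b and Tcf7 had no count in any library. How human reads were handled before counting is not given in the sources used here. Jurkat cells are human and the counts are on mouse genes, so low counts cannot show how much Jurkat RNA was present.

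The sequence just upstream of the start was read for the genes whose levels moved most, to show which of them carry the letters of the cyclic AMP response element. The 250 bases before the RefSeq start are printed 5′ to 3′ on the gene's own strand, from RefSeq on build GRCm38.p6, with capitals for the half-site TGACG or its reverse complement CGTCA. The windows are chr11:62248734-62248983 on the plus strand for Adora2b, chr15:97767667-97767916 on the minus strand for Rapgef3, and chr15:101266596-101266845 on the plus strand for Nr4a1.
Adora2b: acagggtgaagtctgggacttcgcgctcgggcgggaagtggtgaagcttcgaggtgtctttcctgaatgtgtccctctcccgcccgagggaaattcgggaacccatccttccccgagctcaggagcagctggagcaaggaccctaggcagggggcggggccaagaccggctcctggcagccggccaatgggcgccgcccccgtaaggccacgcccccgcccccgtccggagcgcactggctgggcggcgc
Rapgef3: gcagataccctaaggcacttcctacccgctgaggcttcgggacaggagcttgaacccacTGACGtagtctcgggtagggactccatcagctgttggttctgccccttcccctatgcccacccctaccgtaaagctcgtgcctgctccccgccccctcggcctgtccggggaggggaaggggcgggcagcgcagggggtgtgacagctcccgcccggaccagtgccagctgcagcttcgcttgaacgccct
Nr4a1: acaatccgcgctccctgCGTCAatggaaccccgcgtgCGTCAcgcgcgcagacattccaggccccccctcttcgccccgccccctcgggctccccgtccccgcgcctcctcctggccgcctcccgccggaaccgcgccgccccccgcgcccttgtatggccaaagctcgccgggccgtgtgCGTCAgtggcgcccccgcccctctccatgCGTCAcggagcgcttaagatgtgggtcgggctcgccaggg
The Nr4a1 window held 4 half-sites, all as CGTCA, beginning 233, 213, 69 and 40 bases upstream of the start. The Rapgef3 window held 1, as TGACG, beginning 191 bases upstream, and the Adora2b window held no such letters. Their GC content was 74.4% for Nr4a1, 66% for Rapgef3 and 69.6% for Adora2b. The full element TGACGTCA was in none of these 3 windows. Of all 32851 promoter windows of the same length in the table, 5836 (17.8%) held the half-site on either strand, 45 (0.137%) held 4 or more, and 508 (1.55%) held the full element, whose letters include the half-site on both strands. The cutoff of 4 is the number seen in the Nr4a1 window, and these shares are not matched for GC content. Of the 7 members read in this way, Pde4a held a half-site in 1 of its 3 windows, Pde4b in 1 of 4, Entpd1 in both of 2, and Pde4d in none. The counts were made on build mm39, and no coordinate was carried between builds. A match is a description of the letters and no evidence of binding, and a missing match speaks only of this window.

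Of the receptors, Adora2b moved and Adora2a did not pass the threshold at any time. Adora2b (ENSMUSG00000018500) encodes the low-affinity receptor of the stimulatory pair. Its level was 1.84, 1.49, 1.32 and 2.04 CPM in macrophages alone, 2.39, 2.21, 2.27 and 1.84 CPM at 45 min, 9.05, 9.83, 8.91 and 12.4 CPM at 90 min, and 13.6, 17.9, 17.5 and 15.5 CPM at 180 min. The 45 min libraries overlapped those of macrophages alone, every 90 min library lay above both, and every 180 min library lay above every 90 min library. The group means were 1.67 ± 0.326 CPM in macrophages alone, 2.18 ± 0.237 CPM at 45 min, 10 ± 1.6 CPM at 90 min and 16.1 ± 2 CPM at 180 min (SD, n = 4 each). Against macrophages alone the log2 fold change was 0.38 (SE 0.191) at 45 min, 2.60 (SE 0.178) at 90 min and 3.28 (SE 0.174) at 180 min. The last is a 9.71-fold higher level, which ranked 8 among the 14168 genes ordered by log2 fold change, and the 90 min value, 6.06-fold, ranked 20. Between neighbouring times the log2 fold change was 2.22 (SE 0.167) for 90 against 45 min and 0.68 (SE 0.15) for 180 against 90 min. In bulk RNA of this kind, a larger share of cells with the transcript and more transcript per cell cannot be told apart.

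Adora2a (ENSMUSG00000020178), the high-affinity receptor that is often induced in inflammatory macrophages, was close to the limit of the depth, with 11 to 57 counts a library. Its level was 0.974, 0.94, 1.13 and 0.966 CPM in macrophages alone, 1.87, 0.783, 0.866 and 1.04 CPM at 45 min, 1.61, 1.05, 0.778 and 0.639 CPM at 90 min, and 1.36, 1.84, 2.29 and 1.1 CPM at 180 min. The groups overlapped at every time. Against macrophages alone, Adora2a had a log2 fold change of 0.18 (SE 0.397) at 45 min, 0.01 (SE 0.425) at 90 min and 0.71 (SE 0.404) at 180 min. The 95% interval of the 180 min value runs between -0.08 and 1.5, and a difference at 180 min was not detectable at this depth.

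Entpd1 (ENSMUSG00000048120) encodes CD39, which removes phosphates from extracellular ATP and ADP on the way to adenosine. It was among the more abundant genes of the set and stayed within a narrow range, at 54.6 ± 1.95 CPM in macrophages alone, 55 ± 4.92 CPM at 45 min, 54 ± 1.61 CPM at 90 min and 61.4 ± 4.72 CPM at 180 min (SD, n = 4 each). Its libraries held 63.7, 59.3, 56 and 66.6 CPM at 180 min, against 55.2, 55.3, 51.8 and 56.2 CPM alone, and these groups overlapped. The log2 fold change at 180 min was 0.17 (SE 0.0659) and passed the threshold of an adjusted p under 0.05. It no longer passed when any 1 of libraries 1, 2 or 3 of macrophages alone (0.17, 0.18 and 0.15) or libraries 1, 2 or 4 of 180 min (0.16, 0.18 and 0.13) was left out, nor without the filter on low counts (0.17) or after removal of a trend on exon length and GC (0.15). For 180 against 90 min the log2 fold change was 0.19 (SE 0.0675), which did not pass with all libraries and did pass without library 3 of 180 min (0.24), by DESeq2 (0.19), with coding genes only (0.19) and after removal of the length and GC trend (0.21).

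Rapgef3 (ENSMUSG00000022469) encodes EPAC1, the exchange factor through which cyclic AMP activates the small GTPase RAP1. Its level was 3.25, 2.62, 2.83 and 2.63 CPM in macrophages alone, 3.4, 4.22, 2.51 and 5.35 CPM at 45 min, 8.91, 7.39, 9.48 and 7.66 CPM at 90 min, and 13.6, 15, 16.3 and 16.5 CPM at 180 min. The 45 min libraries were the most scattered and overlapped macrophages alone, while the 90 min and the 180 min libraries each lay wholly above the earlier groups. The means were 2.83 ± 0.292 CPM in macrophages alone, 3.87 ± 1.21 CPM at 45 min, 8.36 ± 0.996 CPM at 90 min and 15.3 ± 1.35 CPM at 180 min (SD, n = 4 each). Relative to macrophages alone, Rapgef3 had a log2 fold change of 0.47 (SE 0.175) at 45 min, 1.55 (SE 0.175) at 90 min and 2.43 (SE 0.169) at 180 min, the last a 5.4-fold higher level that ranked 47 of 14168. It was 1.08 (SE 0.166) for 90 against 45 min and 0.88 (SE 0.158) for 180 against 90 min. Of the alternatives run, the 45 min value passed the threshold only without library 3 of 45 min, the lowest of its group (0.63). A pair of antisense genes overlaps Rapgef3, and since the strand setting of the counting is not given in the sources used here their reads cannot be set apart from it with certainty. Their own counts were small: over the 4 libraries of macrophages alone and of 45, 90 and 180 min, Rapgef3os2 had 29, 34, 27 and 36 counts and Rapgef3os1 had 3, 2, 11 and 20. These come from libraries of different depth. Rapgef3os2 had log2 fold changes against macrophages alone of -0.08, 0.59 and 0.67, and Rapgef3os1 was not tested.

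**Figure D1:**
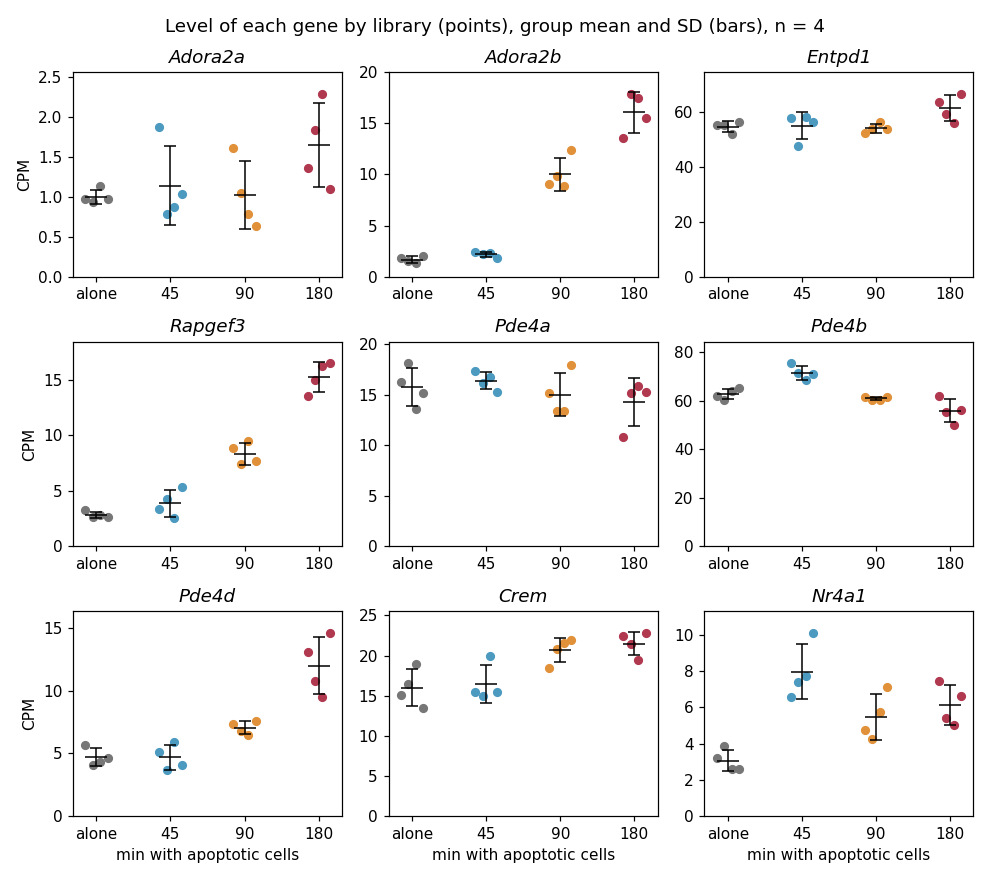
Level in CPM of each of the 9 genes in every library (points) with the group mean and SD (bars, n = 4), for macrophages alone and after 45, 90 and 180 min with apoptotic cells; each panel has its own axis from 0. Adora2b reached 13.6 to 17.9 CPM at 180 min against 1.32 to 2.04 CPM alone, Rapgef3 and Pde4d also climbed over time, Nr4a1 was highest at 45 min, and Pde4a and Adora2a overlapped across all groups.

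The PDE4 phosphodiesterases break down cyclic AMP and are the main such enzymes of leukocytes. Of the 3 members measured, Pde4d rose at the later times, and Pde4a did not pass the threshold in any comparison. At the main settings, Pde4b lay within 0.23 on the log2 scale in either direction in all 5 comparisons. These did not include 45 against 180 min, where the Pde4b means were 71.5 and 55.9 CPM. Pde4d (ENSMUSG00000021699) was at 5.7, 4.03, 4.34 and 4.61 CPM in macrophages alone, 5.14, 3.68, 5.9 and 4.07 CPM at 45 min, 7.37, 6.81, 6.44 and 7.6 CPM at 90 min, and 13.1, 10.8, 9.52 and 14.6 CPM at 180 min. Its 45 min libraries overlapped macrophages alone, its 90 min libraries lay above both, and its 180 min libraries lay above those at 90 min. Against macrophages alone, Pde4d had a log2 fold change of -0.00 (SE 0.165) at 45 min, 0.59 (SE 0.169) at 90 min and 1.36 (SE 0.163) at 180 min, the last a 2.57-fold higher level. It was 0.60 (SE 0.166) for 90 against 45 min and 0.77 (SE 0.163) for 180 against 90 min.

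Pde4b (ENSMUSG00000028525) is the PDE4 form best known for its induction by lipopolysaccharide in macrophages. It was the most abundant member by mean CPM except at 180 min, where Entpd1 was higher. Its level was 62, 60.3, 63.8 and 65.1 CPM in macrophages alone, 75.3, 71.4, 68.4 and 70.9 CPM at 45 min, 61.5, 60.4, 60.3 and 61.4 CPM at 90 min, and 62, 55.3, 50 and 56.2 CPM at 180 min. All 45 min libraries lay above all those of macrophages alone and of 90 min, and the 180 min libraries overlapped macrophages alone. The log2 fold change against macrophages alone was 0.19 (SE 0.0593) at 45 min, -0.04 (SE 0.0616) at 90 min and -0.17 (SE 0.0617) at 180 min, and it was -0.23 (SE 0.0609) for 90 against 45 min. The 45 min value did not pass the threshold without library 1 (0.19) or 2 (0.19) of macrophages alone or library 1 of 45 min (0.18), nor after thinning every library to the lowest depth (0.16); with the length and GC trend removed it was 0.29 and passed. The 180 min value did not pass without library 3 (-0.15) or 4 (-0.15) of macrophages alone or library 3 (-0.12) or 4 (-0.17) of 180 min, with the length and GC trend removed (-0.12), or with coding genes only (-0.15).

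Pde4a (ENSMUSG00000032177) was at 15.8 ± 1.9 CPM in macrophages alone, 16.4 ± 0.874 CPM at 45 min, 15 ± 2.13 CPM at 90 min and 14.3 ± 2.36 CPM at 180 min (SD, n = 4 each). All groups overlapped. Its log2 fold change against macrophages alone was 0.05 at 45 min, -0.08 at 90 min and -0.14 at 180 min, with 95% intervals that run between -0.16 and 0.27, -0.30 and 0.15, and -0.36 and 0.08. The fourth PDE4 gene, Pde4c, had 2 to 13 counts over the 4 libraries of a group except at 45 min, where it had none, and was not tested.

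Nr4a1 (ENSMUSG00000023034) encodes an orphan nuclear receptor that is an immediate early gene and a known target of CREB. Its mean was highest at 45 min. The level was 3.21, 3.84, 2.61 and 2.57 CPM in macrophages alone, 6.58, 7.42, 7.71 and 10.1 CPM at 45 min, 4.75, 4.25, 5.73 and 7.14 CPM at 90 min, and 7.43, 5.42, 5.01 and 6.61 CPM at 180 min. Every library with apoptotic cells lay above every library without, and the 3 times overlapped each other. Nr4a1 differed from macrophages alone by a log2 fold change of 1.38 (SE 0.182) at 45 min, a 2.6-fold higher level, 0.83 (SE 0.193) at 90 min and 0.99 (SE 0.19) at 180 min. For 90 against 45 min it was -0.54 (SE 0.179), which no longer passed the threshold without library 4 of 45 min (-0.42) or library 2 of 90 min (-0.45), and for 180 against 90 min it was 0.16 (SE 0.187). The window with 4 half-sites printed above is that of this gene, and whether they bear on its level was not tested.

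Crem (ENSMUSG00000063889) encodes the cyclic AMP response element modulator, whose short inducible forms repress CREB targets. The gene-level counts do not separate those forms from the activating ones. Its level was 15.1, 16.4, 19 and 13.5 CPM in macrophages alone, 15.5, 14.9, 20 and 15.4 CPM at 45 min, 18.5, 20.8, 21.6 and 21.9 CPM at 90 min, and 22.4, 21.5, 19.5 and 22.8 CPM at 180 min. The 180 min libraries lay above those of macrophages alone, and the 90 min libraries overlapped them. The log2 fold change against macrophages alone was 0.03 (SE 0.103) at 45 min, 0.37 (SE 0.105) at 90 min and 0.42 (SE 0.105) at 180 min. The 90 min value did not pass the threshold without library 4 of macrophages alone (0.30). For 90 against 45 min the log2 fold change was 0.34 (SE 0.104), which did not pass without library 1 (0.29), 2 (0.28) or 4 (0.29) of 45 min or library 4 of 90 min (0.29), nor with the length and GC trend removed (0.21). Gm6225, a noncoding gene on the opposite strand of Crem, had 345 counts over the 4 libraries of macrophages alone and 369, 178 and 179 at 45, 90 and 180 min, from libraries of different depth, with log2 fold changes against macrophages alone of -0.26, -0.31 and -0.54.

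**Figure D2:**
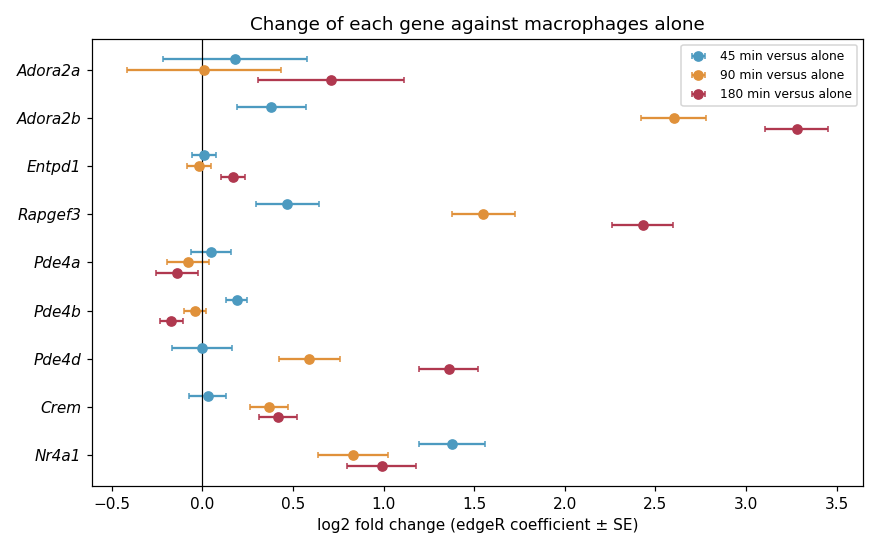
Log2 fold change of each of the 9 genes at 45, 90 and 180 min against macrophages alone, with the standard error of the edgeR coefficient as bars. The 3 comparisons share the same 4 control libraries; Adora2b and Rapgef3 lie farthest to the right at 180 min, at 3.28 and 2.43, and Nr4a1 is the farthest at 45 min, at 1.38.

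Counted over the set, 2 of 9 genes passed the threshold at 45 min, Nr4a1 and Pde4b, both higher. Of all genes tested, 4.69% passed as higher and 6.11% as lower in that comparison. At 90 min 5 genes passed, all higher (Adora2b, Rapgef3, Pde4d, Crem and Nr4a1), beside 11.1% of all genes higher and 9.97% lower. At 180 min 6 passed as higher, the same 5 and Entpd1, and Pde4b passed as lower, beside 15.1% higher and 16% lower. For 90 against 45 min 4 passed as higher (Adora2b, Rapgef3, Pde4d and Crem) and 2 as lower (Pde4b and Nr4a1), beside 14.8% and 13.3% of all genes. For 180 against 90 min 3 passed, all higher (Adora2b, Rapgef3 and Pde4d), beside 4.45% higher and 6.97% lower. In the comparisons with no member lower by edgeR's quasi-likelihood test, DESeq2 also called none lower, and the count at an unadjusted p under 0.05 was 0 at 45 min, 0 at 90 min and 1 for 180 against 90 min. Because the genes were picked with these values known, the counts are given beside the background without being read against it. The 45, 90 and 180 min comparisons share the libraries of macrophages alone and are not independent of each other. The split over all genes depended on scaling: once a trend on exon length and GC was taken out, 773 genes were higher and 479 lower at 45 min (664 and 865 without that step), 1453 and 1966 at 90 min (1573 and 1413), and 1599 and 2615 for 90 against 45 min (2096 and 1888). At 180 min it was 1961 and 2784 (2139 and 2265). For 180 against 90 min it changed little, at 694 and 1064 (631 and 987). The members' directions, for every value past the threshold, were the same under that step.

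Divided by exon length, the order of the members' levels changed over the time course. The level per kb at 180 min was 11 CPM for Entpd1, 8.74 for Adora2b, 5.29 for Pde4b, 3.65 for Crem, 2.42 for Rapgef3, 1.87 for Pde4a, 1.74 for Nr4a1, 1 for Pde4d and 0.538 for Adora2a. In macrophages alone it was 9.79 CPM for Entpd1, 5.95 for Pde4b, 2.72 for Crem, 2.06 for Pde4a, 0.906 for Adora2b, 0.871 for Nr4a1, 0.447 for Rapgef3, 0.389 for Pde4d and 0.328 for Adora2a. Only Entpd1 lay above Adora2b at 180 min, whereas Entpd1, Pde4b, Crem and Pde4a lay above it in macrophages alone, where it was close to Nr4a1. Between the receptors, Adora2b stood at 8.74 CPM per kb at 180 min and 0.906 alone, while Adora2a stood at 0.538 and 0.328. The lengths are those of all annotated exons of a gene, so the scale is approximate where several isoforms exist.

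**Figure D3:**
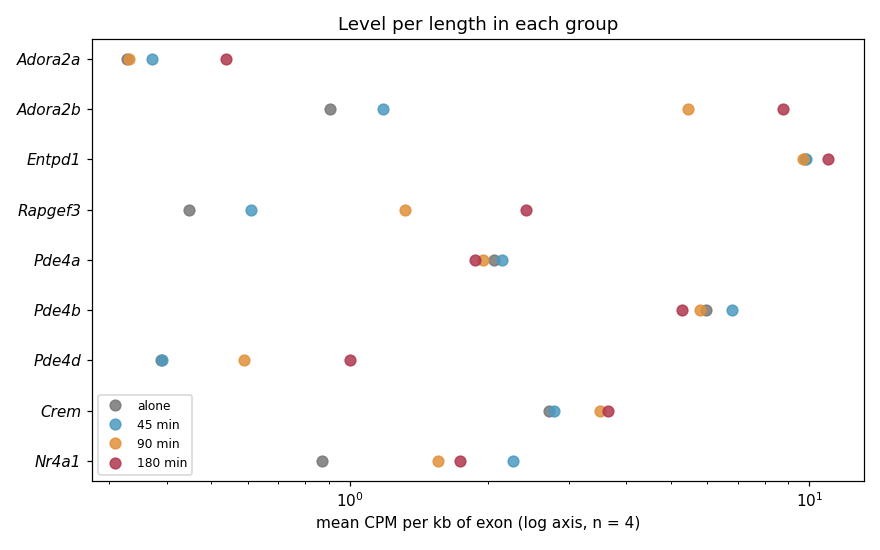
Mean level of each gene per kb of exon (CPM per kb, log axis) in macrophages alone and after 45, 90 and 180 min, n = 4 libraries a point. Adora2b moves across most of the range, with 8.74 at 180 min against 0.906 alone, whereas Entpd1 and Pde4b stay within narrow bands.

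The genes nearest in pattern were found by the root mean square difference over the 3 log2 fold changes against macrophages alone, among 9849 genes of at least 1 log2 CPM on average. The nearest to Adora2b were Olr1 (0.884), which encodes the scavenger receptor LOX-1, Spsb1 (0.916) and Cish (0.972), a feedback inhibitor of cytokine receptor signalling. None of them was close: Olr1 had log2 fold changes of -0.17, 1.20 and 3.02 at 45, 90 and 180 min. The nearest to Rapgef3 were Spsb1 (0.315), Cish (0.395) and Maff (0.414). The nearest to Nr4a1 were the AP-1 subunit gene Fosb (0.122), with 1.24, 0.95 and 1.10, then Alkbh2 (0.36) and Plk3 (0.404). Those nearest to Pde4b, Cyb5r1 (0.0101), Cln8 (0.0117) and Tufm (0.0125), lay closer, among the many genes whose changes were small. The distance takes no account of the errors and carries no test.

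The wider pathway was described with 8 lists of 156 genes in all, of which 124 were tested; Adora1, Adora3, Rgs2 and Sik1 stand in 2 lists each. By edgeR's quasi-likelihood test with Benjamini-Hochberg adjustment over all 14168 genes, 18 of the 124 rose and 7 fell at 45 min, 25 rose and 22 fell at 90 min, and 34 rose and 40 fell at 180 min. That is 14.5% higher and 5.65% lower at 45 min, 20.2% and 17.7% at 90 min, and 27.4% and 32.3% at 180 min. Of the 18 rises at 45 min, 13 were in the list of other CREB targets, where 24 genes were tested. No other list had more than 2 rises at 45 min, so the pooled share of rises there rests mostly on that list. The share of all genes at each time is given above, and the median log2 fold change of the 124 was 0.02, -0.00 and -0.07. The lists were written with earlier results of these data known, and the counts are a description of them. All adjusted p-values that follow come from this edgeR test.

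Among genes of adenosine supply, uptake and breakdown, 17 of 21 were tested. At 45 min 1 rose, at 90 min 2 rose and 1 fell, and at 180 min 4 rose and 3 fell. With the length and GC trend removed, 1 rose and 1 fell at 45 min and 2 rose and 3 fell at 90 min. Slc28a2, a concentrative nucleoside transporter, was at 309 ± 7.47 CPM in macrophages alone, 347 ± 23.7 CPM at 45 min, 353 ± 25.7 CPM at 90 min and 251 ± 9.95 CPM at 180 min (SD, n = 4 each). It rose at 45 min (log2 0.17, adjusted p = 0.0127) and 90 min (0.19, adjusted p = 0.00189) and fell at 180 min (-0.30, adjusted p = 8.53e-07). The 2 rises did not pass without library 3 of 45 min (0.14) or library 1 of 90 min (0.13). Pnp, the purine nucleoside phosphorylase, fell at 180 min (105 CPM against 139 CPM alone, log2 -0.41, adjusted p = 5.85e-10), as did Slc29a3, a lysosomal nucleoside transporter (186 CPM against 239 CPM, log2 -0.37, adjusted p = 3.85e-09). Ampd3, an AMP deaminase, rose (177 CPM against 141 CPM, log2 0.33, adjusted p = 1.25e-07). Chosen after their values were seen, Nt5e, whose product CD73 makes adenosine from AMP, was at 1.88 ± 0.504 CPM in macrophages alone, 1.16 ± 0.446 CPM at 45 min, 1.98 ± 0.603 CPM at 90 min and 2.32 ± 0.331 CPM at 180 min. Adora3, chosen likewise, was at 0.56 ± 0.343, 0.364 ± 0.307, 0.28 ± 0.368 and 0.56 ± 0.227 CPM in the same order. Adora1 had at most 5 counts over the 4 libraries of a group and was not tested, so Adora2b was the only 1 of the 4 adenosine receptor genes with a mean above 2 CPM in any group.

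Of the other receptors that couple to the stimulatory or inhibitory G protein, 13 of 20 were tested. At 45 min 1 rose, at 90 min 1 rose and 3 fell, and at 180 min 3 rose and 4 fell. The 45 min rise became 3 with the length and GC trend removed, and 2 by DESeq2, in a fit of only the 2 groups, or without library 3 of macrophages alone or library 1 of 45 min. The 3 falls at 90 min became 5 with the length and GC trend removed and 1 without library 2 of 90 min. Ptger4, the EP4 receptor for prostaglandin E2, rose at all 3 times, with 32 ± 1.48 CPM in macrophages alone, 40.9 ± 1.54 CPM at 45 min, 64 ± 4.06 CPM at 90 min and 76.5 ± 4.73 CPM at 180 min (SD, n = 4 each). Its log2 fold changes against macrophages alone were 0.35 (adjusted p = 8.64e-05), 1 (adjusted p = 8.21e-19) and 1.26 (adjusted p = 5.5e-24). Like Adora2b, it encodes a receptor coupled to the stimulatory G protein, and its groups did not overlap macrophages alone at any time. Ptger2, the EP2 receptor for the same ligand, rose at 180 min (log2 0.21, adjusted p = 0.00259), and its log2 fold changes at 45 and 90 min were -0.08 and -0.11 and did not pass. S1pr1 rose (0.34, adjusted p = 1.17e-06) and P2ry14, a receptor for UDP-sugars, fell (-0.49, adjusted p = 3.66e-06) at 180 min; with the length and GC trend removed, P2ry14 also rose at 45 min (0.28, against 0.05 without that step).

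Among the G proteins and adenylyl cyclases, 14 of 22 were tested. At 45 min 2 rose, at 90 min 1 rose and 5 fell, and at 180 min 2 rose and 7 fell. Over the alternatives the number that fell ran between 2 and 6 at 90 min and between 3 and 9 at 180 min. The lowest of both came without library 3 of macrophages alone, 4 fell at 180 min without library 3 or 4 of 180 min, and 9 fell there with the length and GC trend removed. Gnas, the stimulatory alpha subunit, was at 525 ± 14.4 CPM in macrophages alone, 590 ± 20.2 CPM at 45 min, 482 ± 24.7 CPM at 90 min and 480 ± 29.5 CPM at 180 min, with log2 fold changes of 0.17 at 45 min (adjusted p = 0.00511), -0.12 at 90 min (adjusted p = 0.0336) and -0.13 at 180 min (adjusted p = 0.0156). The falls did not pass at 90 min without library 3 (-0.11) or 4 (-0.13) of macrophages alone or library 4 of 90 min (-0.10) or with the length and GC trend removed (-0.07), nor at 180 min without library 3 of macrophages alone (-0.11) or library 2 or 3 of 180 min (-0.11 each). Gnai2, an inhibitory alpha subunit, fell at 90 min (-0.19, adjusted p = 0.000863) and at 180 min (-0.17, adjusted p = 0.0017). Its 45 min value (0.12, adjusted p = 0.0587) did not pass, with 747 ± 23.3 CPM against 687 ± 12.5 CPM alone. That value passed in 8 of the 15 alternatives and was 0.02 with the length and GC trend removed. The beta subunit gene Gnb2 fell at 90 and 180 min too (-0.17 and -0.18, and -0.28 at 180 min with the length and GC trend removed). Rgs1, which shortens G protein signals, rose at 45 min (0.27, adjusted p = 1.35e-06) and 90 min (0.16, adjusted p = 0.00195) and fell at 180 min (-0.16, adjusted p = 0.000989). With the length and GC trend removed its log2 fold change was 0.54 at 45 min and 0.08 at 90 min, and the 90 min value no longer passed.

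For protein kinase A and its anchors, 16 of 19 were tested. At 45 min 1 fell, at 90 min 1 rose and 2 fell, and at 180 min 2 rose and 4 fell. The balance at 180 min depended on the setting: 6 rose and 4 fell with coding genes only, 5 and 4 by DESeq2, and 4 and 4 with the length and GC trend removed or with thinned libraries. At 45 min 1 rose and 1 fell by DESeq2 and with that trend removed, and 2 fell in a fit of only the 2 groups. Prkar2b, a regulatory subunit, rose at 180 min to 27.5 ± 1.62 CPM, against 15 ± 1.35 CPM alone (log2 0.88, adjusted p = 8.17e-11), while Prkaca, a catalytic subunit, fell to 49.7 ± 4.3 CPM, against 63 ± 2.14 CPM (-0.33, adjusted p = 4.32e-05). Other subunits, chosen after their values were seen, had higher CPM. The catalytic Prkacb was at 129 ± 5.75 CPM against 138 ± 1.85 CPM alone, and the regulatory Prkar1a at 342 ± 10 CPM against 322 ± 8.7 CPM. The anchor gene Akap8 rose (0.34, adjusted p = 8.92e-07) and Akap9 fell (-0.33, adjusted p = 0.000496) at 180 min. Akap9 fell at 45 min too (-0.54, adjusted p = 2.47e-07), and its fall at 90 min (-0.26) did not pass without library 2 of macrophages alone (-0.22) or library 1 of 90 min (-0.18). With the length and GC trend removed, Akap9 was at -0.29 at 45 min and -0.20 at 180 min, and both still passed.

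Among the other EPAC and RAP1 genes, 15 of 16 were tested, and the one not tested was Rapgef4, which encodes EPAC2 and had 3 to 18 counts over the 4 libraries of a group. At 45 min 1 fell, at 90 min 2 rose and 2 fell, and at 180 min 5 rose and 6 fell. The 45 min count became 5 rises and 1 fall with the length and GC trend removed. It was 1 rise and 2 falls in a fit of only the 2 groups, 1 and 1 with no filter or without library 2 or 4 of macrophages alone or library 2 of 45 min, and 2 falls without library 1 of 45 min. Sipa1 (-0.38, adjusted p = 4.46e-07) and Sipa1l3 (-0.40, adjusted p = 2.45e-06), which encode GTPase-activating proteins that turn RAP1 off, fell at 180 min. The exchange factor genes Rapgef2 (-0.19, adjusted p = 0.00043) and Rapgef6 (-0.31, adjusted p = 0.000177) fell at that time too. Rapgef2 had risen at 90 min (0.19, adjusted p = 0.000516). With the length and GC trend removed it also passed as higher at 45 min (0.14, against 0.02 without that step), and its 180 min value was -0.10.

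Of the other genes with phosphodiesterase names, 12 of 18 were tested. They include Pde4dip, Pde6d and Pde12, which do not encode cyclic nucleotide phosphodiesterases, so the counts do not speak of cyclic AMP breakdown alone. The means of these genes at 180 min were 41.4, 18.8 and 33.1 CPM, against 55.1, 22.5 and 28.8 CPM alone. At 45 min 1 rose and 1 fell, at 90 min 4 rose, and at 180 min 5 rose and 3 fell. The 45 min count, Pde1b and Pde10a, changed in 10 of the 15 alternatives, and neither gene passed with the length and GC trend removed. Pde3b, which is inhibited by cyclic GMP, was at 10.1 ± 2.06 CPM in macrophages alone, 16.2 ± 1.69 CPM at 90 min (log2 0.70, adjusted p = 9.84e-06) and 17.6 ± 1.63 CPM at 180 min (0.83, adjusted p = 8.07e-08). Pde8a, specific for cyclic AMP, rose at 90 min (0.45, adjusted p = 2.17e-08) and 180 min (0.56, adjusted p = 1.05e-11), and Pde7a rose at 90 min (0.32, adjusted p = 0.000342) and 180 min (0.27, adjusted p = 0.00167). Pde1b, a calmodulin-dependent form, rose at 90 min (0.76, adjusted p = 2.18e-14) and 180 min (0.43, adjusted p = 2.4e-07). Its rise at 45 min (0.23, adjusted p = 0.0134) did not pass without library 2 of 45 min (0.16), by DESeq2 (0.23) or with the length and GC trend removed (0.16). Pde10a was low, at 0.668 ± 0.215 CPM at 45 min against 1.59 ± 0.183 CPM alone, and its fall (-1.26, adjusted p = 0.0387) did not pass without library 2, 3 or 4 of macrophages alone (-1.19, -1.22 and -1.24) or library 1, 3 or 4 of 45 min (-1.17, -1.27 and -1.09), with no filter on low counts (-1.25) or with the length and GC trend removed (-1.16).

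In the CREB family with its coactivators and SIK kinases, 16 of 17 were tested. At 45 min 4 fell, at 90 min 3 rose and 5 fell, and at 180 min 4 rose and 7 fell. The 4 falls at 45 min became 2 when library 2, 3 or 4 of macrophages alone was left out, or 1, 3 or 4 of 45 min, and 1 rise and 2 falls with the length and GC trend removed. Ep300, a histone acetyltransferase recruited by CREB, fell at each time, with 274 ± 16.8 CPM at 180 min against 406 ± 7.63 CPM alone (-0.57, adjusted p = 4.52e-16). Sik1, a salt-inducible kinase that holds CREB coactivators out of the nucleus, fell at 90 min (-0.51, adjusted p = 4.68e-07) and 180 min (-0.37, adjusted p = 6.62e-05). Crebzf rose at 90 min (0.60, adjusted p = 1.29e-08) and 180 min (0.72, adjusted p = 1.66e-11). Creb5 rose at 90 min (0.46, adjusted p = 6.58e-11), and its value at 180 min (0.17, adjusted p = 0.00522) did not pass without library 3 of 180 min (0.13). With the length and GC trend removed, Creb5 was at 0.19 at 45 min, against -0.11 without that step, and at 0.32 at 180 min, and both passed.

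Of the other CREB targets, 24 of 27 were tested. At 45 min 13 rose and the other 11 did not pass, and the list's median log2 fold change was 0.40 beside 0.00 over all genes tested. At 90 min 11 rose and 5 fell (median 0.11), and at 180 min 9 rose and 7 fell (median 0.09). Many of these genes also answer to other signals such as MAP kinases. Dusp1, a MAP kinase phosphatase, rose at 45 min (491 ± 6.33 CPM against 306 ± 9.89 CPM alone, 0.68, adjusted p = 1.79e-18) and then fell below macrophages alone at 90 min (-0.70, adjusted p = 2.2e-19) and 180 min (-1.20, adjusted p = 4.75e-30). Fos did likewise, with 0.68 at 45 min (adjusted p = 2.22e-16), -0.91 at 90 min (adjusted p = 2.61e-21) and -0.44 at 180 min (adjusted p = 2.11e-10).

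Fosb, the nearest to Nr4a1 in pattern among the genes compared, was at 4.08 ± 0.368 CPM in macrophages alone, 9.64 ± 0.881 CPM at 45 min, 7.96 ± 2.29 CPM at 90 min and 8.84 ± 0.786 CPM at 180 min (SD, n = 4 each). Id2 rose at each time (0.41, 0.86 and 1.14, adjusted p = 2.56e-10, 2.19e-23 and 1.1e-29), as did Id1 (0.65, 1.16 and 1.09, adjusted p = 0.00783, 6.45e-07 and 1e-06); both encode inhibitors of basic helix-loop-helix factors. Nr4a3, the relative of Nr4a1, rose at 90 min (2.62 ± 1.01 CPM against 0.815 ± 0.264 CPM, 1.69, adjusted p = 0.00117) and 180 min (1.95, adjusted p = 7.61e-05), and its 0.40 at 45 min, where Nr4a1 was highest, did not pass. Bcl6, a transcriptional repressor, fell at 90 min (-0.70, adjusted p = 2.32e-16) and 180 min (-1.18, adjusted p = 1.96e-26). Ddit4, an inhibitor of mTOR complex signalling, fell at 90 min (0.529 ± 0.234 CPM against 2.11 ± 0.59 CPM, -2.01, adjusted p = 8.14e-05). Il10, the anti-inflammatory cytokine, passed at 45 min (3.43 ± 1.23 CPM against 1.6 ± 0.159 CPM, 1.09, adjusted p = 0.0151) and did not without library 1 of 45 min (0.83); at 180 min it did not pass (-0.52) and did without library 2 of 180 min (-1.04). Hbegf passed at 180 min (1.14, adjusted p = 0.0263) and did not without library 1 (1.09), 3 (1.10) or 4 (1.08) of macrophages alone or library 2 of 180 min (0.81).

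**Figure D4:**
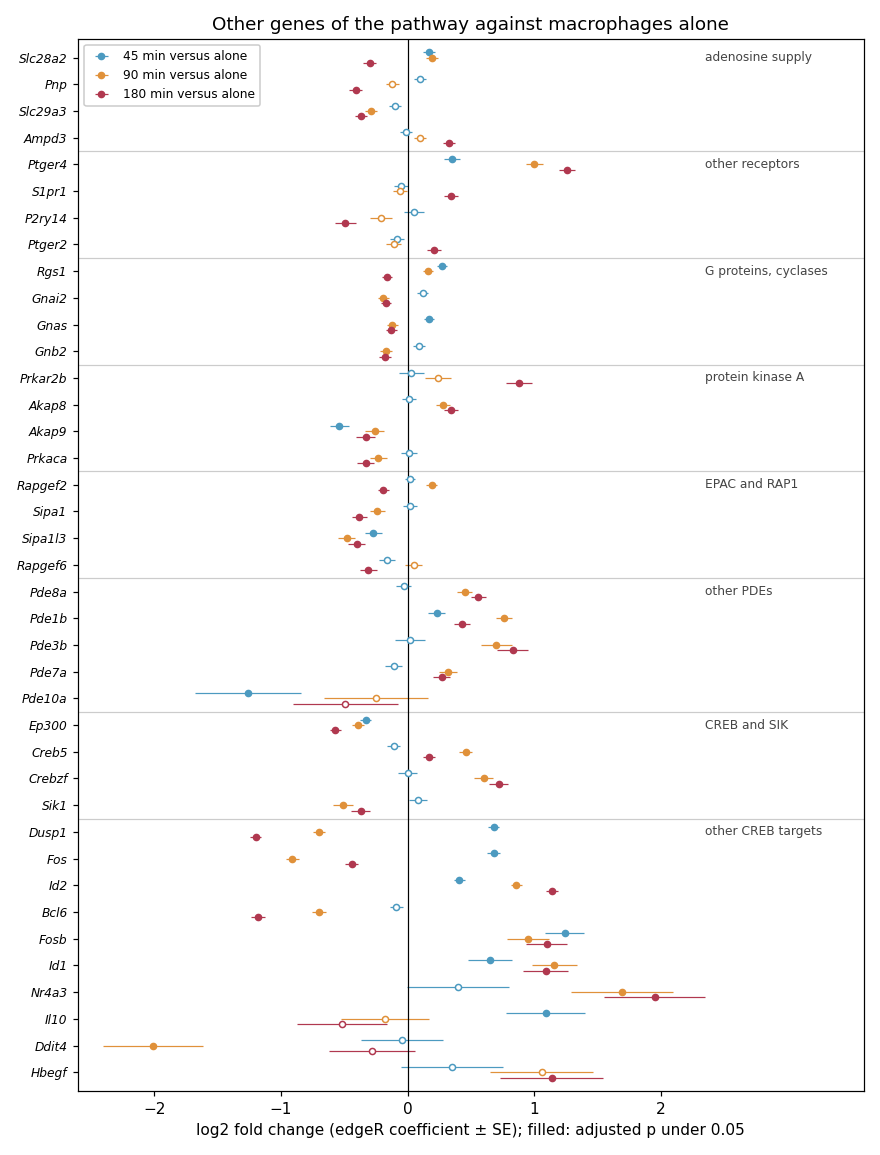
Log2 fold change of the named genes of the 8 pathway lists at 45, 90 and 180 min against macrophages alone, with standard errors; filled points had an adjusted p under 0.05 by edgeR's quasi-likelihood test. Ptger4 rose at all 3 times, up to 1.26 at 180 min, while Dusp1 was at 0.68 at 45 min and -1.20 at 180 min.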

How the data were processed

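The authors deposited raw counts per mouse Ensembl gene for 16 libraries in 4 groups. STAR 2.7.9a, SAMtools, HTSeq and build mm39 are named, per the submitters' processing notes; their settings, the counting strand and human read handling were not given in the sources used here. Of 55416 gene IDs, 52083 were matched to a symbol and 25663 had at least 1 count; 0 columns were left unused. Columns were tied to groups by their names, which carry no replicate number.

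Counts were tested with edgeR 4.0.16 (R 4.3.3) by the quasi-likelihood F test, with TMM scaling and filterByExpr (minimum count 10, minimum total 15), which left 14168 genes. All 16 libraries shared 1 estimate of the spread (biological coefficient of variation 7.81%), p-values were adjusted by Benjamini-Hochberg over all genes tested, and the threshold was 0.05. Standard errors were derived from each coefficient and its F statistic (coefficient over root F). CPM used the TMM-scaled totals, except for the summed cell type markers, which were scaled to the raw library totals. Exon lengths and GC content came from GENCODE M21 on GRCm38. The procedure was also run on counts simulated from the fit of these libraries, and the outcome of that run is not given here. Totals of 10.7 M to 41.7 M counts gave Adora2a, near 1 CPM, 11 to 57 counts a library. Within groups the 24 pairs of libraries differed beyond counting noise (chi-square per degree of freedom 3.84 to 9.55), so none was taken as a duplicate.

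The members and lists were chosen with earlier results of these data known. Of each pathway list, up to 4 genes with the smallest p for any change over the 3 times are named, with any gene called at a log2 fold change of at least 1 in size. As alike in pattern, the nearest 3 to each of Adora2b, Rapgef3, Nr4a1 and Pde4b are named, leaving out members and genes with clone or numbered names. Alternatives were DESeq2 1.42.0 and its size factors, no filter, only the 2 groups compared, thinning, removal of a length and GC trend, coding genes only, and leaving out each library.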

Additional observations from a re-analysis of the deposited data

Results flagged for a closer look

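In 36 groups of 4 libraries, 9 genes by 4 groups, 2 libraries stood far from the rest of their group; chance alone sets apart about 1 in 20 such groups. Pde4a was at 10.8 CPM in library 1 of 180 min, where the nearest of the other libraries was at 15.2 CPM, a gap of 0.858 of the whole range. Crem was at 20 CPM in library 3 of 45 min, where the nearest was at 15.5 CPM, a gap of 0.874 of the range.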

How the results depend on the processing

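No paired analysis was possible because the columns of the count table carry no replicate number. Over the 9 genes, 5 comparisons and 15 alternatives (675 values), no value past the threshold changed sign, 26 values that passed the threshold no longer did and 5 newly passed; the genes concerned, Pde4b, Entpd1, Crem, Nr4a1 and Rapgef3, are named in the report with their values. The 2 genes of the set past the threshold at 45 min became 1 after thinning every library to the lowest depth, and 1 to 3 when 1 library was left out. Leaving out 1 library gave 4 to 5 genes at 90 min (5 with all), 5 to 6 at 180 min (7), 4 to 6 for 90 against 45 min (6) and 3 to 4 for 180 against 90 min (3). Over all genes it gave 1079 to 1534 past the threshold at 45 min (1529 with all), 2369 to 2866 at 90 min (2986) and 3781 to 4264 at 180 min (4404). Among the named pathway genes, Creb5 at 45 min changed sign with the length and GC trend removed, to 0.19 against -0.11, and the cause was not tested. Of 1755 such values, 29 no longer passed and 34 newly passed. Of 360 counts of list genes past the threshold, 41 moved by over 1.5 times, most of them at 45 min. Coding genes only was chosen after seeing the data. Depth limits genes with low counts, among them Adora2a, Pde10a, Nr4a3, Ddit4 and Hbegf.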
